A study of Mus musculus with 16 samples.

Results

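Glycolysis, the pentose phosphate pathway and the handling of pyruvate were followed through 35 listed mouse genes in AND T cells, which are CD4+ and carry a transgenic receptor for a moth cytochrome c peptide. The members are a list of gene names that was drawn up with earlier results of these data known. Of the 35 members, 30 had a named probe set and were tested among 18193 genes. Gpi1, Eno1, G6pdx and Mpc2 are not analysed here, and Gapdh was read only from the array's control probe sets. Where a tested member had several probe sets, the brightest on average stood for it.

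B10.BR mice (animals of 6 to 8 weeks) received lymph node cells of CD90.1-marked AND donors. Donor CD4+CD90.1+ cells were recovered by flow sorting at 60 h, and their RNA, amplified in 2 rounds, was measured on 16 Affymetrix mouse arrays. Each of 3 antigen regimes was combined with the agonist anti-CD40 antibody FGK45.5, which matures dendritic cells, or with PBS. The comparisons ask how the presence and the duration of antigen, and the state of the dendritic cells that present it, set the program of the responding T cells.

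Recipients without antigen were Ii-rTA- TIM+ and by title had no doxycycline, with 2 arrays for anti-CD40 and 3 for PBS. Recipients with transient antigen were Ii-rTA+ TIM+ with short doxycycline, again with 2 arrays for anti-CD40 and 3 for PBS. Recipients with persistent antigen were Ii-rTA+ TIM+ with long doxycycline, with 3 arrays for each treatment. The peptide was expressed under a doxycycline-controlled promoter, so genotype and doxycycline exposure differed along with antigen and their effects cannot be told apart. The labels do not say whether replicates are separate animals, and the p-values therefore rest on a spread between arrays that may be partly technical.

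Glycolysis splits glucose into pyruvate in the cytosol and yields ATP without oxygen, and the pentose phosphate pathway branches from its first product to make NADPH and ribose. Pyruvate is either reduced to lactate and exported, or carried into mitochondria and oxidised by the pyruvate dehydrogenase complex, which the Pdk kinases switch off. Naive T cells rely mostly on oxidation, and T cells activated through their receptor and costimulation are known for raising glucose uptake, glycolysis and lactate export as they grow and divide.

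All values are log2(intensity + 1) of the deposited linear intensities, a scale on which differences of dim genes are understated. A level of 1 probe set says nothing about the level of another, so only changes of a gene are compared. The median intensity per array lay between 18.2 and 21.3, and the median probe set at 4.37 in log2. The means of Aldoc, Slc16a3, Pfkfb4 and Pdk2 lay below that median, where signal is not set apart from background. The 6 probe sets of Slc2a3, Aldoa, Tpi1, Pgk1, Pgd and Tkt are of a type (x_at) that holds probes shared with other sequences, so part of their signal may come from related copies. In bulk RNA, fewer cells of a type and less RNA per cell cannot be told apart.

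Differences were estimated with limma in 1 model of the 6 groups and are given as estimate ± standard error. Benjamini-Hochberg adjustment ran over the 18193 genes, and an adjusted p under 0.05 counts as a pass. Arrays of the same replicate number deviated together from their group means, with correlations of 0.48 to 0.81 over 36 pairs that are not independent. The model was therefore also fitted with the replicate number as a block (the blocked fit, beside the unblocked fit). The block lowered the median residual SD of the members to 0.20, against 0.39 without it. It moved nearly every count, so both counts are given, and single estimates come from the blocked fit unless the other is named. Values of single arrays are in the order of replicates 1, 2 and 3.

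The sorted cells carried T cell markers at a summed log2 level of 12.87 to 13.49 over the 16 arrays. The B cell markers summed to 6.23 to 8.11, with the means of Cd79a, Cd79b, Pax5 and Blnk over the 16 arrays below the median probe set. Ms4a1 of that list was above it on every array, at 4.45 to 7.66. The markers of dendritic cells and macrophages summed to 7.37 to 8.29, with the means of Itgax, Cd14 and Cd68 below that median, and those of granulocytes to 6.14 to 6.62. The means of Lyz2, Csf1r, Flt3, Adgre1 and Fcer1g lay above that median, with Lyz2 at 5.16 to 6.92. The markers of NK cells and CD8 T cells summed to 7.28 to 8.48, with the means of Cd8b1 and Ncr1 below that median. Cd8a and Klrd1 lay above it, with Klrd1 at 6.74 to 8.17. The sums were 5.62 to 6.42 for erythrocytes and 6.37 to 6.84 for stroma and endothelium. Of 8 T cell markers, 2 were lower with persistent than with no antigen under PBS in the blocked fit: Cd5, a receptor that dampens T cell receptor signals (−1.54 ± 0.16, adjusted p = 1.5e-06), and Cd3g, a subunit of the receptor complex (−0.58 ± 0.18, adjusted p = 0.031). Thy1, which encodes CD90, was higher with transient than with no antigen under PBS (1.34 ± 0.21, adjusted p = 0.00092). Thy1 (−0.86 ± 0.21, adjusted p = 0.01) and Cd5 (−1.12 ± 0.16, adjusted p = 0.00012) were lower with persistent than with transient antigen under PBS. Cd5 was also lower with anti-CD40 than with PBS under transient antigen (−0.76 ± 0.19, adjusted p = 0.012), and with persistent (−1.43 ± 0.19) and transient (−1.05 ± 0.20) than with no antigen under anti-CD40. Ms4a1, a B cell gene, was lower with persistent (−0.95 ± 0.29, adjusted p = 0.029) and transient (−1.66 ± 0.31, adjusted p = 0.0011) than with no antigen under anti-CD40, and Blnk with transient antigen (−0.57 ± 0.17, adjusted p = 0.031). Pecam1, from the list of stroma and endothelium, was lower with persistent than with no antigen under PBS (−0.60 ± 0.14, adjusted p = 0.0056) and anti-CD40 (−0.58 ± 0.17, adjusted p = 0.019). With PBS it was also lower with persistent than with transient antigen (−0.59 ± 0.14, adjusted p = 0.01), as was Elane of the granulocyte list (−0.45 ± 0.14, adjusted p = 0.0478). The part of these genes in the results below was not tested.

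The promoters of 6 members are shown first, chosen after their values were seen. Each passed in 4 or 5 comparisons between groups in the blocked fit. They are Hk2 and Slc16a1 (both higher with anti-CD40 under transient antigen), Tpi1 and Pgam1 from the later steps of glycolysis, and the kinases Pdk3 and Pdk1, which moved in opposite directions. Others with as many passes or more are not shown: Pfkp passed in 6 comparisons, and Aldoa, Pkm, Pgd and Tkt in 5 each. Each window is the 250 bases before the RefSeq start on GRCm38.p6, 5′ to 3′ on the gene's strand. Capitals mark ACGTG and GCGTG, the core letters of a hypoxia response element, and CACGTG, an E box that contains ACGTG, searched on both strands (so CACGT and CACGC are their complements).
Hk2, chr6:82774455-82774704, minus strand: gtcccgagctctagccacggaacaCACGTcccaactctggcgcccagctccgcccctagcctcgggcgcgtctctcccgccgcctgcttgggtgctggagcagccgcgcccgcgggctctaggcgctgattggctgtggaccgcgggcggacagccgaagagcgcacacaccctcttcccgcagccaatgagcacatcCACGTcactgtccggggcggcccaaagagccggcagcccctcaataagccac
Tpi1, chr6:124814159-124814408, minus strand: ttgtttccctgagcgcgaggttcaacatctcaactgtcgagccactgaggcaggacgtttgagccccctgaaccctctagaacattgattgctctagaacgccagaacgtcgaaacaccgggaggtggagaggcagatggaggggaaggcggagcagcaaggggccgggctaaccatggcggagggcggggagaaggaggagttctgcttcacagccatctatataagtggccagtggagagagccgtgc
Pgam1, chr19:41911621-41911870, plus strand: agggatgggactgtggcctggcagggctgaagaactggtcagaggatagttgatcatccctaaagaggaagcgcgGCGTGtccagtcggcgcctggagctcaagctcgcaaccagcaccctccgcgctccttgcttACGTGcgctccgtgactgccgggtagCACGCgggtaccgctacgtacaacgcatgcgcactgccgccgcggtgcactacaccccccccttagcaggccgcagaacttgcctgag
Slc16a1, chr3:104638414-104638663, plus strand: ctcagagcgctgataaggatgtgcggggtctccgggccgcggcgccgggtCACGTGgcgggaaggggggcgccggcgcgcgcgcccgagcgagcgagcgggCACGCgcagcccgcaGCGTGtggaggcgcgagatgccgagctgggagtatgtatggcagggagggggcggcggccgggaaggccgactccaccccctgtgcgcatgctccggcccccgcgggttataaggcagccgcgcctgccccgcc
Pdk3, chrX:93832151-93832400, minus strand: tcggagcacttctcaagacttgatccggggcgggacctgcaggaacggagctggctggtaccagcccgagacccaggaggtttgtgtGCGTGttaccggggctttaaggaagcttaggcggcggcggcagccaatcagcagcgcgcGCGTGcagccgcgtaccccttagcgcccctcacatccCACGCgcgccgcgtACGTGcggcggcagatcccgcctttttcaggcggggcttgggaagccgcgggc
Pdk1, chr2:71872974-71873223, plus strand: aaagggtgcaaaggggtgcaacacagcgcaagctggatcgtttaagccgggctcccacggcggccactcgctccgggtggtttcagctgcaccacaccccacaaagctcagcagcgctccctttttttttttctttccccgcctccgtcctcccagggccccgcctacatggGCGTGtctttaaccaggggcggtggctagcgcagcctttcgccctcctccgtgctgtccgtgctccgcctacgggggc

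The Hk2 window holds 2 copies of ACGTG and the Pgam1 window 1 copy of it with 2 of GCGTG. The Slc16a1 window holds the E box CACGTG, which counts as ACGTG on each strand, and 2 copies of GCGTG. The Pdk3 window holds 1 ACGTG and 3 GCGTG, the Pdk1 window 1 GCGTG, and the Tpi1 window none of these letters. Pdk1 has 2 listed starts, and the window of the most upstream of these is shown. That window ends at 71873223, past 71873215, where the coordinates of the gene begin. Over the 43 windows of the 29 members with one, ACGTG was in 37.2% (16.6% of all 32851 windows), GCGTG in 55.8% (28.2%) and CACGTG in 11.6% (6.02%). Member windows were richer in G and C, with a median of 60.4% against 52.4% for all windows. A match is a run of letters and not a measured site.

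With PBS, Hk2, Pfkp, Aldoa, Tpi1, Pgk1, Pgam1 and Pkm between glucose and pyruvate were higher with persistent than with no antigen in the blocked fit. Pfkm and Eno3 of the same steps were lower. Of the pyruvate dehydrogenase kinases, Pdk3 rose and Pdk1 fell. In the unblocked fit 4 of 30 members passed against no antigen (3 higher, 1 lower), while 3.57% of all genes passed (2.2% higher, 1.36% lower). With the block 18 passed (14 higher, 4 lower), while 16.7% of all genes passed (9.93% higher, 6.79% lower). All persistent arrays lay above all arrays without antigen for 10 members and below them for 4, as they did for 8.4% and 9.64% of all genes. The median difference over the 30 members was 0.40, against −0.03 over all genes.

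Tpi1 (chr6:124810586-124814158 on GRCm38.p6, triose phosphate isomerase, which interconverts the triose phosphates) had log2 levels of 8.70, 7.79 and 8.51 with persistent antigen, against 6.34, 4.89 and 6.37 without antigen. Every persistent array was above every array without antigen, by 2.47 ± 0.26 or 5.53-fold (adjusted p = 1.2e-06, and 0.0067 without the block). Pfkp (chr13:6579874-6649060), the platelet-type subunit of phosphofructokinase, was at 9.80, 9.59 and 9.22 with persistent antigen, against 8.19, 8.21 and 8.03 without antigen. These groups did not overlap either, and the rise was 1.39 ± 0.15 or 2.63-fold (adjusted p = 2.4e-06, and 0.0029 without the block). Tpi1 and Pfkp passed in both fits whichever array was left out.

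The other rises between glucose and pyruvate that passed did so in the blocked fit only. Hk2 (chr6:82725025-82774454), the inducible hexokinase that traps glucose in the cell, was at 7.76, 6.10 and 7.01 with persistent antigen, against 6.02, 5.80 and 6.00 without antigen. Replicate 2 lay just above the range without antigen and the other replicates well above it, and the rise was 1.02 ± 0.30 (adjusted p = 0.022). Pkm, pyruvate kinase, was at 9.01, 7.35 and 7.13 with persistent antigen, against 7.22, 5.43 and 5.77 without antigen. The lowest persistent array was below the highest array without antigen, yet persistent antigen was higher within each replicate number, by 1.78, 1.92 and 1.35, and the blocked rise was 1.68 ± 0.19 (adjusted p = 3.4e-06). Pgam1 (phosphoglycerate mutase) was at 9.58, 8.95 and 9.40 with persistent antigen, against 8.52, 8.03 and 8.53 without antigen. It rose by 0.95 ± 0.20 without overlap (adjusted p = 0.0016).

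Aldoa, the aldolase of muscle and most tissues, was at 10.84, 9.86 and 10.44 with persistent antigen, against 9.96, 8.79 and 9.92 without antigen. Only replicate 2 of persistent antigen reached into the range without antigen, and the rise was 0.82 ± 0.18 (adjusted p = 0.0025). The dimmest Aldoa probe set, still above the median at a mean of 8.48, did not pass (0.09 ± 0.20, adjusted p = 0.85). The remaining Aldoa probe sets rose by 0.72 to 0.87. Pgk1, phosphoglycerate kinase, differed least among the members that passed, at 12.70, 12.49 and 12.69 with persistent antigen, against 12.35, 11.99 and 12.28 without antigen. Its difference of 0.42 ± 0.14 (adjusted p = 0.0462) failed with any 1 array left out, at adjusted p = 0.07 to 0.17, while a dimmer Pgk1 probe set of another type rose by 0.93 ± 0.19 (adjusted p = 0.0016). Gapdh, the dehydrogenase just before Pgk1, had 3′ control levels of 11.70, 10.66 and 11.78 with persistent antigen, against 10.34, 9.08 and 10.45 without antigen, which do not overlap and were not tested.

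At the lactate end, Ldha (the lactate dehydrogenase subunit that favours lactate) was at 12.39, 11.06 and 12.12 with persistent antigen, against 11.65, 10.57 and 11.10 without antigen. Persistent antigen was higher within each replicate number, and the rise was 0.75 ± 0.14 (adjusted p = 0.00088). Slc16a1, the lactate exporter MCT1, was at 6.95, 6.23 and 6.36 with persistent antigen, against 6.07, 5.56 and 5.55 without antigen. It rose by 0.78 ± 0.18 without overlap (adjusted p = 0.0039). Ldhb, the subunit that favours pyruvate, did not pass with its brightest probe set (−0.46 ± 0.18, adjusted p = 0.084), but its 3 other probe sets were lower by −1.34 ± 0.22, −0.81 ± 0.16 and −1.45 ± 0.27 (adjusted p = 0.00027, 0.0019 and 0.00073).

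Of the 5 tested pentose phosphate genes, Tkt, Taldo1 and Pgd rose, and Pgls and Rpia did not pass. Tkt, transketolase of the reversible arm, was at 11.08, 10.83 and 10.82 with persistent antigen, against 10.21, 9.42 and 10.19 without antigen. It rose by 0.97 ± 0.17 without overlap (adjusted p = 0.00035). Taldo1, transaldolase of the same arm, rose by 0.91 ± 0.15 without overlap (adjusted p = 0.00025). Pgd, the NADPH-forming 6-phosphogluconate dehydrogenase, was at 9.5, 7.89 and 9.38 with persistent antigen, against 8.52, 7.0 and 8.76 without antigen. Its replicate 2 arrays were low in both groups, and the rise within replicate numbers was 0.83 ± 0.16 (adjusted p = 0.00089).

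Pyruvate entry into mitochondria showed both directions. Mpc1, a subunit of the mitochondrial pyruvate carrier, was at 7.22, 7.23 and 7.40 with persistent antigen, against 6.50, 5.52 and 6.59 without antigen. It rose by 1.08 ± 0.25 without overlap (adjusted p = 0.0036). Pdk3, a kinase that inactivates pyruvate dehydrogenase, was at 8.30, 7.52 and 7.79 with persistent antigen, against 6.94, 6.21 and 6.64 without antigen. Pdk1, another kinase of the same family, was at 8.91, 8.76 and 8.98 with persistent antigen, against 9.53, 10 and 9.94 without antigen. Neither overlapped, with Pdk3 higher by 1.27 ± 0.17 (adjusted p = 1.7e-05, and 0.042 without the block) and Pdk1 lower by −0.94 ± 0.15 (adjusted p = 0.00014, and 0.029 without the block). The 3 other Pdk1 probe sets were lower by −1.25 to −1.42, while Pdha1, the catalytic subunit of the complex, did not pass (−0.17 ± 0.17, adjusted p = 0.59).

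Slc2a3, Pfkm and Eno3 also fell with persistent antigen in the blocked fit. Eno3, the muscle enolase, was at 4.71, 4.08 and 4.22 with persistent antigen, against 5.87, 4.82 and 5.83 without antigen, a fall of −1.17 ± 0.21 without overlap (adjusted p = 0.00042), although 2 persistent arrays lay below the median probe set. Slc2a3 (the glucose transporter GLUT3) was at 7.22, 7.54 and 7.25 with persistent antigen, against 7.59, 8.28 and 8.13 without antigen, a fall of −0.66 ± 0.17 (adjusted p = 0.0097). Slc2a1, the transporter GLUT1, did not pass (0.34 ± 0.20, adjusted p = 0.30). Pfkm, the muscle subunit of phosphofructokinase, fell by −0.52 ± 0.17 (adjusted p = 0.039). The regulators of fructose 2,6-bisphosphate, Pfkfb3 (−0.33 ± 0.19) and Pfkfb4 (−0.22 ± 0.15), did not pass.

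**Figure D1:**
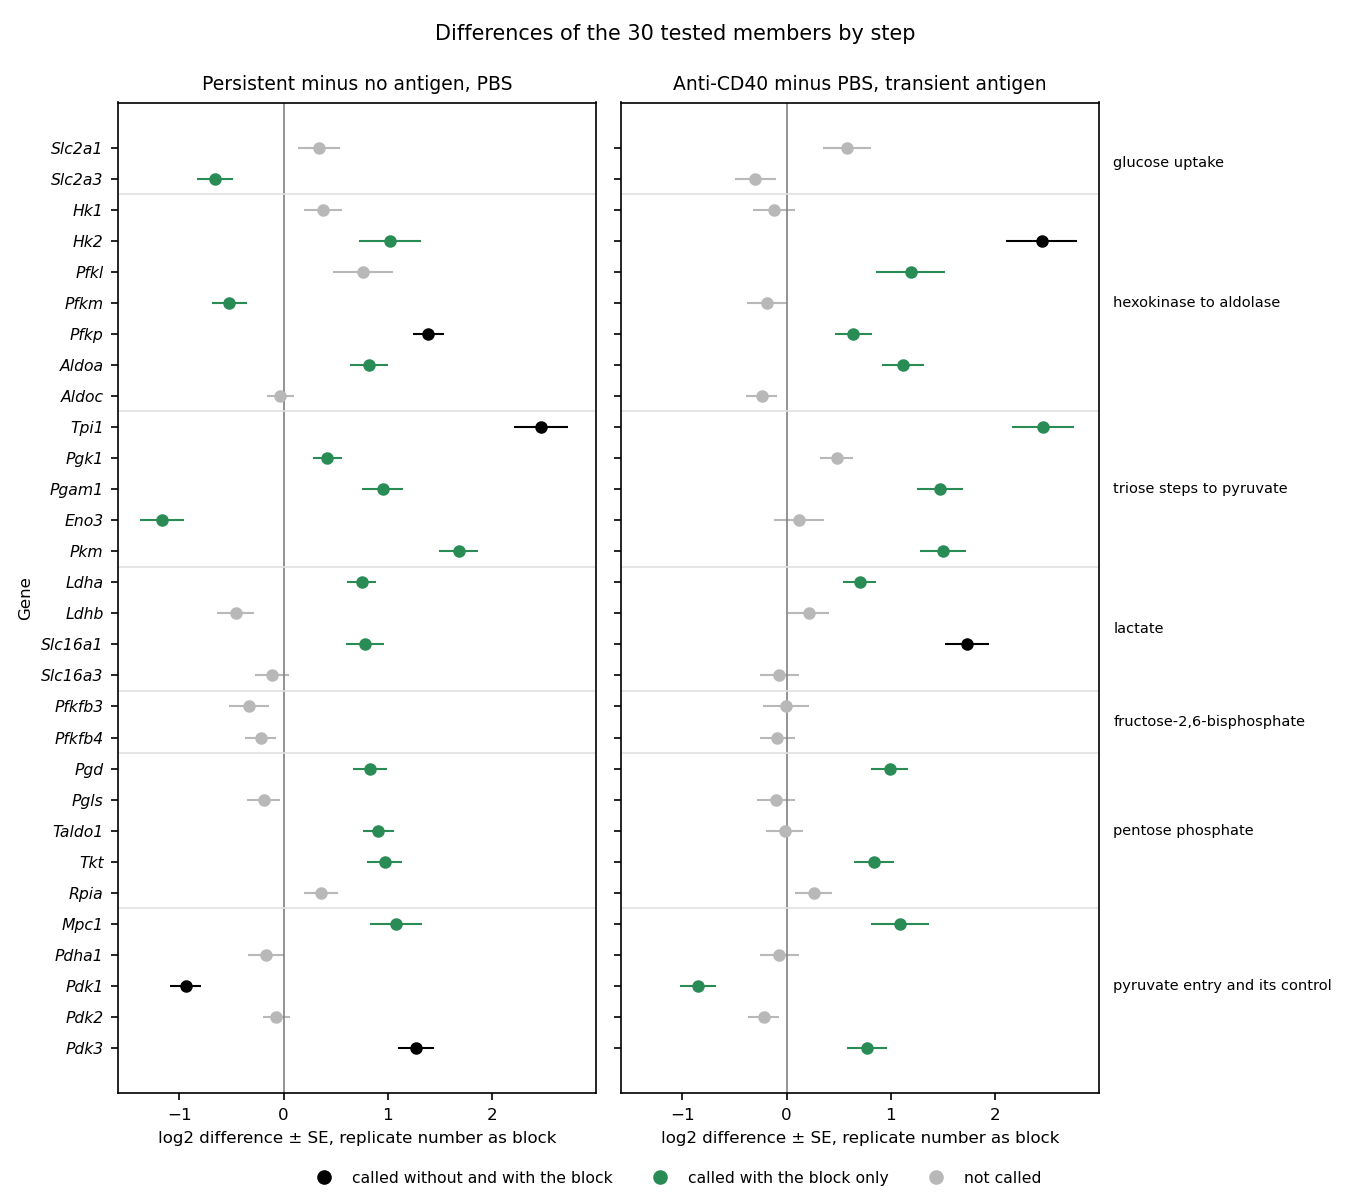
Log2 difference ± SE from the blocked fit for the 30 tested members, grouped by step, for persistent minus no antigen with PBS (left) and anti-CD40 minus PBS under transient antigen (right). Black points passed in both fits, green points with the block only, and grey points in neither. Tpi1 lies farthest right on the left (2.47), and Pdk1 lies below 0 on both sides (−0.94 and −0.85).

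The unblocked count was at most 3 with any 1 array left out. It fell to 2 (Pfkp and Tpi1) without PBS replicate 3 of no antigen or PBS replicate 1 or 3 of persistent antigen. The unblocked passes of Pdk1 and Pdk3 each failed in 5 of these 6 fits, at up to adjusted p = 0.12 and 0.21. With each array left out in turn, 14 of the 18 blocked passes held, and Slc2a3, Hk2, Pfkm and Pgk1 did not (highest adjusted p = 0.089, 0.17, 0.21 and 0.17). In replicate 2 the arrays with antigen came from another run of array numbers than those without, and the 3′ minus 5′ signal of the Gapdh control was 1.29 to 1.54 there, against 2.14 and 2.49 on the arrays without antigen. Without replicate 2, 16 of the 18 blocked passes held.

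With transient antigen and PBS, Pfkp rose and Eno3 fell against no antigen, both in the blocked fit only, and no other member passed. In the unblocked fit 0 of 30 members passed against no antigen (3 at an unadjusted p under 0.05), while 0.126% of all genes passed. With the block 2 passed, 1 in each direction (11 at an unadjusted p under 0.05), while 2.89% of all genes passed (2.02% higher, 0.868% lower). The median over the members was 0.16, against 0.03 over all genes.

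Pfkp was at 8.96, 9.04 and 8.88 with transient antigen, against 8.19, 8.21 and 8.03 without antigen. The groups were clearly apart, with a rise of 0.82 ± 0.15 or 1.76-fold (adjusted p = 0.0049, and 0.38 without the block) that passed whichever array was left out. Eno3 was at 4.41, 4.48 and 4.69 with transient antigen, against 5.87, 4.82 and 5.83 without antigen, a fall of −0.98 ± 0.21 (adjusted p = 0.012). It failed without replicate 1 or 3 of either group, at up to adjusted p = 0.099. Tpi1 was at 7.15, 6.40 and 6.50 with transient antigen, above every array without antigen, but the difference of 0.81 ± 0.26 did not pass (adjusted p = 0.11). Hk2 was at 5.99, 5.74 and 5.67 with transient antigen, inside or near the range without antigen, with a difference of −0.14 ± 0.30 (95% interval −0.77 to 0.48).

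Set against transient antigen directly, persistent antigen with PBS gave higher Tpi1, Hk2, Pkm and other glycolytic enzymes in the blocked fit, and lower Pdk1 and Slc2a3. In the unblocked fit 1 of 30 members passed (Pdk1, lower), while 0.929% of all genes passed (0.324% lower), and it failed without transient replicate 2 or 3 or any 1 persistent array. With the block 12 passed (10 higher, 2 lower), while 11.4% of all genes passed (5.99% higher, 5.44% lower). The groups did not overlap for 11 members, with 8 higher and 3 lower, as for 6.06% and 11.4% of all genes. The median over the members was 0.22, against −0.05 over all genes.

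Pdk1 was at 8.91, 8.76 and 8.98 with persistent antigen, against 9.89, 9.93 and 10.29 with transient antigen. It was lower without overlap by −1.15 ± 0.15 (adjusted p = 3.6e-05, and 0.025 without the block). The largest rise was that of Tpi1, 1.65 ± 0.26 (adjusted p = 0.00023), followed by Hk2 at 1.16 ± 0.30 (adjusted p = 0.015), both without overlap. Pkm rose by 1.07 ± 0.19 (adjusted p = 0.00094) with overlapping groups. Slc16a1 rose by 0.92 ± 0.18 (adjusted p = 0.0019) and Pdk3 by 0.85 ± 0.17 (adjusted p = 0.0021), again without overlap. Pgam1, Aldoa, Tkt, Pfkp and Pgd rose by 0.50 to 0.80, and Slc2a3 fell by −0.75 ± 0.17 (adjusted p = 0.0063). Mpc1, at 0.47 ± 0.25 (adjusted p = 0.25), and Ldha, at 0.44 ± 0.14 (adjusted p = 0.0534), did not pass.

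The passes of Tpi1, Pkm, Slc16a1, Pdk1 and Pdk3 held in the blocked fit whichever array was left out. The other 7 did not, and the count fell to 6 without transient PBS replicate 3 and to 7 without transient PBS replicate 1.

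**Figure D2:**
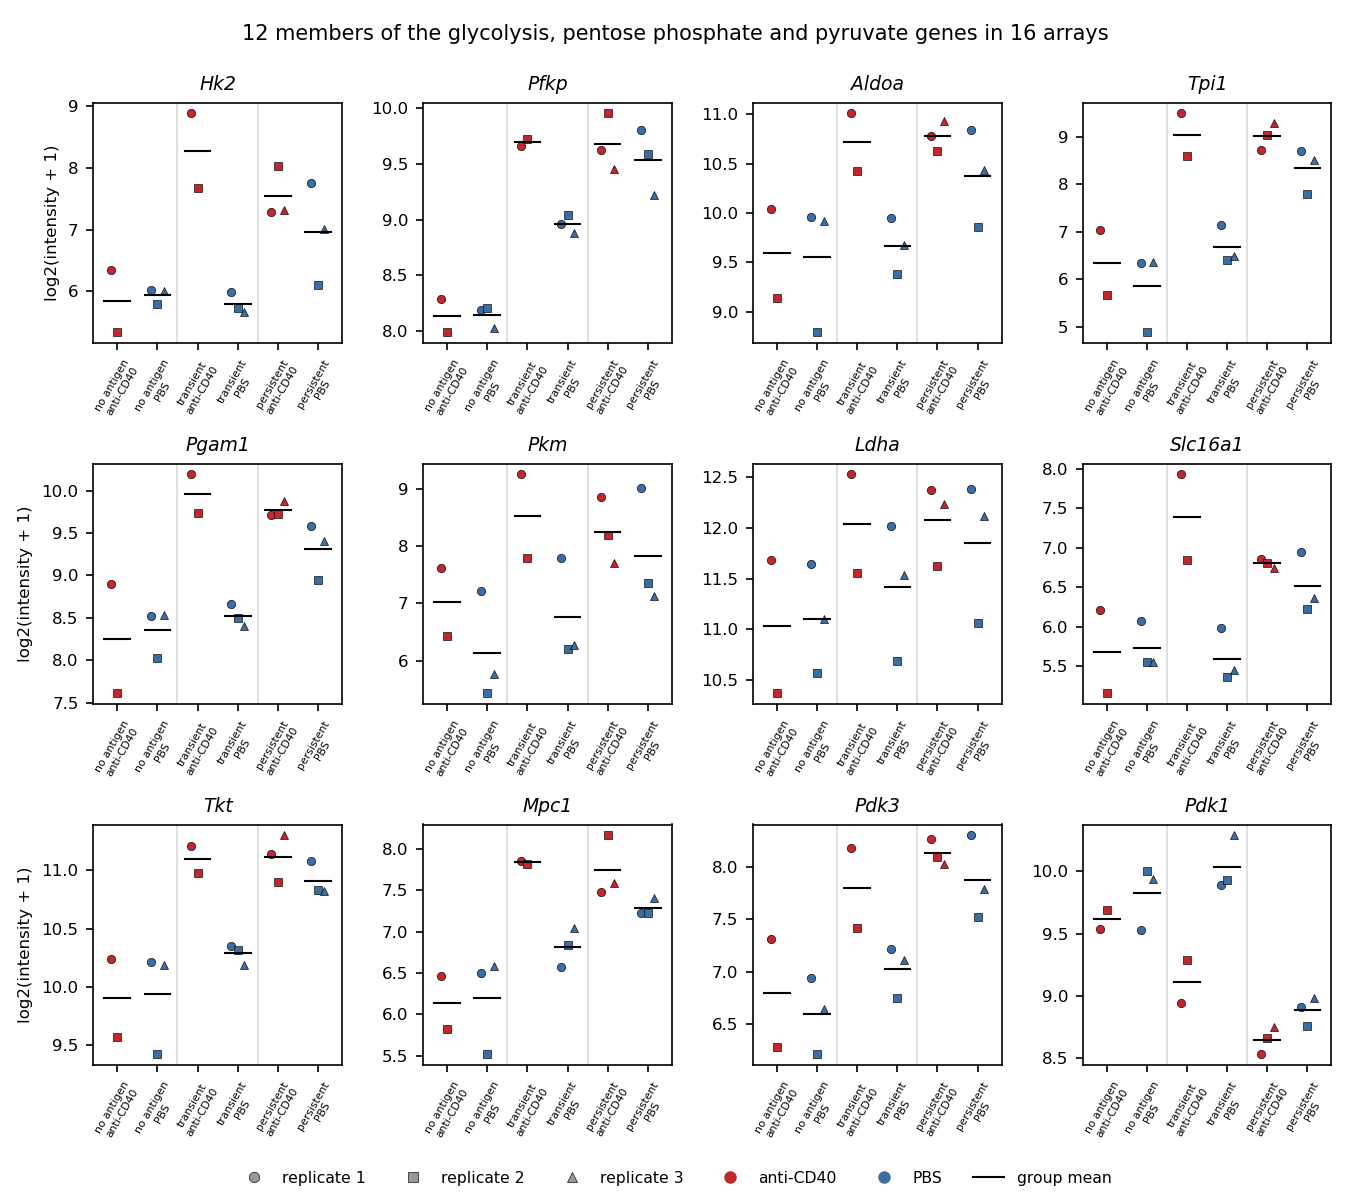
Log2(intensity + 1) of 12 members on each of the 16 arrays, by antigen regime with anti-CD40 (red) left of PBS (blue); symbols mark the replicate number, lines the group means, and each panel has its own axis. Under transient antigen Hk2 stood at 8.88 and 7.67 with anti-CD40, against 5.99, 5.74 and 5.67 with PBS.

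Anti-CD40 raised Hk2, Tpi1, other glycolytic members and the lactate exporter Slc16a1 under transient antigen, while no member passed under the other regimes. In the unblocked fit 2 of 30 members passed under transient antigen (Hk2 and Slc16a1, both higher), while 0.638% of all genes passed (0.522% higher). With the block 14 passed (13 higher, 1 lower), while 10.5% of all genes passed (7.59% higher, 2.92% lower). The groups did not overlap for 14 members, with 11 higher and 3 lower, as for 10.5% and 11.1% of all genes. The median over the members was 0.37 in the blocked fit, against −0.03 over all genes.

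Hk2 was at 8.88 and 7.67 with anti-CD40, against 5.99, 5.74 and 5.67 with PBS under the same transient antigen. The lower anti-CD40 array was above the highest PBS array, and the rise was 2.45 ± 0.34 or 5.45-fold (adjusted p = 0.00014, and 0.032 without the block). Tpi1 was at 9.49 and 8.60 with anti-CD40, against 7.15, 6.40 and 6.50 with PBS. Its rise of 2.46 ± 0.30 or 5.50-fold had an adjusted p of 3.9e-05, and of 0.0511 without the block. Slc16a1 was at 7.93 and 6.85 with anti-CD40, against 5.99, 5.36 and 5.45 with PBS. It too rose without overlap, by 1.73 ± 0.21 or 3.32-fold (adjusted p = 3.7e-05, and 0.044 without the block).

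Further members rose in the blocked fit. Pgam1 was at 10.19 and 9.73 with anti-CD40, against 8.66, 8.5 and 8.40 with PBS, a rise of 1.47 ± 0.22 (adjusted p = 0.00025). Pkm was at 9.25 and 7.79 with anti-CD40, against 7.80, 6.21 and 6.28 with PBS, a rise of 1.5 ± 0.22 (adjusted p = 0.0002). Pgam1 did not overlap, and the Pkm groups met at 7.79 and 7.80 while both pairs of equal number differed in the same direction. Aldoa rose by 1.12 ± 0.20 (adjusted p = 0.0011) and Pgd by 0.99 ± 0.18 (adjusted p = 0.0013). Pfkl, the liver subunit of phosphofructokinase, rose by 1.19 ± 0.33 (adjusted p = 0.022), but its arrays with anti-CD40 were far apart, at 7.43 and 5.07, against 5.66, 4.76 and 4.83 with PBS. Mpc1, Tkt, Pdk3, Ldha and Pfkp rose by 0.64 to 1.09.

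Pdk1 was the member that fell. It was at 8.94 and 9.29 with anti-CD40, against 9.89, 9.93 and 10.29 with PBS, lower by −0.85 ± 0.17 without overlap (adjusted p = 0.0027). Taldo1, which rose with persistent antigen, did not pass here (−0.02 ± 0.18, 95% interval −0.39 to 0.35). Slc2a1 (0.58 ± 0.23, adjusted p = 0.14) and Slc2a3 (−0.30 ± 0.20, adjusted p = 0.46) did not pass either. The Gapdh 3′ control was at 11.95 and 11.29 with anti-CD40, against 10.86, 10.36 and 11 with PBS, again without overlap and not tested.

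The anti-CD40 group under transient antigen has 2 arrays, and the blocked count fell to 7 without its replicate 1 and to 9 without its replicate 2. The passes of Hk2, Aldoa, Tpi1, Pgam1, Pkm, Slc16a1 and Pgd held whichever array was left out in the blocked fit, and those of the unblocked fit failed without transient anti-CD40 replicate 1 or any 1 transient PBS array.

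Without antigen, 0 of 30 members passed with anti-CD40 against PBS in either limma fit (1 at an unadjusted p under 0.05, and 2 with the block), while 0% of all genes passed, and 0.0055% with the block. Hk2 was at 6.34 and 5.34 with anti-CD40 and no antigen, against 6.02, 5.80 and 6.00 with PBS, a difference of −0.13 ± 0.34 (95% interval −0.85 to 0.58). Under persistent antigen 0 of 30 passed in either fit (0 at an unadjusted p under 0.05, and 4 with the block), while 0% of all genes passed in both. Hk2 was at 7.28, 8.03 and 7.31 with anti-CD40 and persistent antigen, against 7.76, 6.10 and 7.01 with PBS, which overlapped. Tpi1 was at 8.73, 9.03 and 9.28 with anti-CD40, just above 8.70, 7.79 and 8.51 with PBS, but 0.68 ± 0.26 (95% interval 0.14 to 1.22) did not pass after adjustment.

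**Figure D3:**
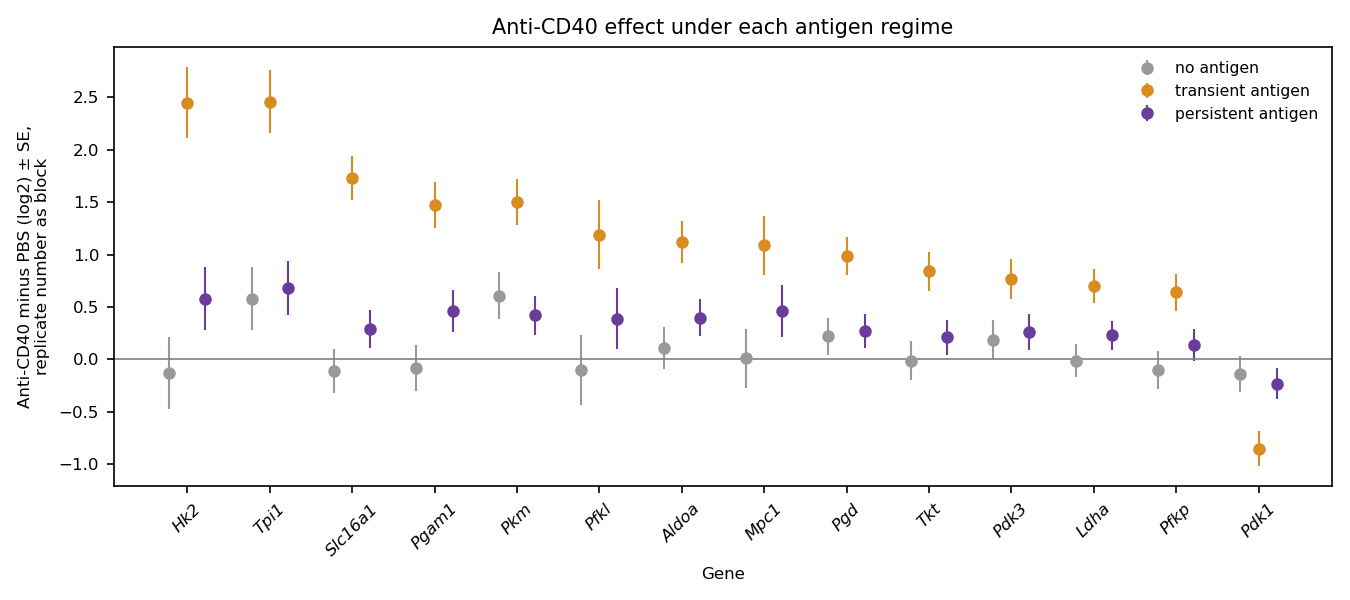
Log2 difference ± SE of anti-CD40 minus PBS from the blocked fit under no (grey), transient (orange) and persistent (purple) antigen, for the 14 members that passed under transient antigen and were chosen for that. The estimates of Tpi1, Hk2 and Slc16a1 are 2.46, 2.45 and 1.73 under transient antigen and 0.68, 0.58 and 0.29 under persistent antigen.

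The differences between regimes in the anti-CD40 effect were tested as interaction terms, and 0 members passed without the block (5 at an unadjusted p under 0.05 for transient and no antigen, and 3 for persistent and transient antigen). In the blocked fit the anti-CD40 effect was higher under transient than under no antigen for 5 members, while 3.69% of all genes passed (3.09% higher). These were Hk2 (2.58 ± 0.47, adjusted p = 0.0058), Tpi1 (1.88 ± 0.41, adjusted p = 0.015), Slc16a1 (1.84 ± 0.28, adjusted p = 0.0033), Pgam1 (1.55 ± 0.31, adjusted p = 0.0094) and Aldoa (1.02 ± 0.28, adjusted p = 0.0499). It was lower under persistent than under transient antigen for 3, Hk2 (−1.86 ± 0.45, adjusted p = 0.041), Tpi1 (−1.78 ± 0.39, adjusted p = 0.026) and Slc16a1 (−1.44 ± 0.27, adjusted p = 0.012), while 1.79% of all genes passed (1.52% lower). Between persistent and no antigen 0 members passed in either fit (0 at an unadjusted p under 0.05 in both), while 0% of all genes passed.

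Only the Slc16a1 difference between transient and no antigen held whichever array was left out. That count fell to 1 without anti-CD40 replicate 2 of no antigen or without anti-CD40 replicate 1 of transient antigen. The count for persistent and transient antigen fell to 0 without anti-CD40 replicate 1 of transient antigen, PBS replicate 3 of persistent antigen or anti-CD40 replicate 1 of persistent antigen.

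With anti-CD40 in all recipients, most members that passed were higher with antigen than without it, while Slc2a3, Eno3 and Pdk1 were lower with persistent antigen in the blocked fit. No member passed between persistent and transient antigen. For persistent against no antigen 5 of 30 members passed unblocked, all higher (Pfkp, Tpi1, Pgam1, Tkt and Mpc1), while 2.37% of all genes passed (1.64% higher). With the block 18 passed (15 higher, 3 lower), while 16.4% of all genes passed (10.9% higher, 5.5% lower). For transient against no antigen 3 passed unblocked (Hk2, Pfkp and Tpi1), while 0.572% of all genes passed (0.423% higher). With the block 15 passed, all higher, while 14% of all genes passed (10.5% higher). These comparisons share the 2 arrays of no antigen with anti-CD40, so their values are given side by side and not as separate support.

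Tpi1 had log2 levels of 7.03 and 5.68 without antigen, 9.49 and 8.60 with transient antigen, and 8.73, 9.03 and 9.28 with persistent antigen, all with anti-CD40. Pgam1 was at 8.90 and 7.61 without antigen, 10.19 and 9.73 with transient antigen, and 9.71, 9.72 and 9.88 with persistent antigen. Mpc1 was at 6.46 and 5.82 without antigen, 7.85 and 7.82 with transient antigen, and 7.48, 8.16 and 7.59 with persistent antigen. For each of the 3 genes both antigen groups lay above no antigen and overlapped each other. Pdk1 was at 9.54 and 9.69 without antigen, 8.94 and 9.29 with transient antigen, and 8.53, 8.66 and 8.75 with persistent antigen, so that no regimes overlapped. It fell with persistent against no antigen (−1.04 ± 0.17, adjusted p = 0.00026) and did not pass with transient antigen (−0.50 ± 0.18, adjusted p = 0.082). Slc2a1 passed nowhere else, and was higher with transient than with no antigen under anti-CD40 (1.01 ± 0.25, adjusted p = 0.008).

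Between persistent and transient antigen with anti-CD40, 0 members passed in either fit (0 at an unadjusted p under 0.05, and 3 with the block), while 0.0055% of all genes passed, and 0.077% with the block. The estimate was −0.13 ± 0.30 for Tpi1 (95% interval −0.75 to 0.50), −0.71 ± 0.34 for Hk2 (−1.42 to 0.01) and −0.54 ± 0.17 for Pdk1 (−0.90 to −0.18, adjusted p = 0.68). In the unblocked fit, Pgam1, Tkt and Mpc1 failed for persistent against no antigen without any 1 persistent array with anti-CD40. Tpi1 failed there without persistent replicate 3. For transient against no antigen the unblocked passes depended on replicate 1 of transient antigen with anti-CD40. Those of Pfkp and Tpi1 depended on replicate 2 of that group as well, and leaving out either leaves 1 array there. Both comparisons, of persistent and of transient antigen, also depended on the low replicate 2 of no antigen with anti-CD40, which leaves 1 array there when left out. In the blocked fit 14 and 11 passed without that replicate 2.

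Differences between isoenzymes on the same array show how the balance of their probe sets moved, while their zero point has no meaning. Pdk1 minus Pdk3 was 0.61, 1.24 and 1.18 with persistent antigen and PBS, against 2.59, 3.78 and 3.30 with no antigen and PBS. The groups were well apart, at 1.01 ± 0.35 and 3.22 ± 0.60 (SD, n = 3 each). It was 0.76 and 1.87 with anti-CD40 under transient antigen, against 2.68, 3.18 and 3.18 with PBS, also apart. Hk2 minus Hk1 was 1.25 and 1.18 with anti-CD40 under transient antigen, against −1.59, −1.06 and −1.88 with PBS. The hexokinases thus showed the widest separation, 2.72, while Hk1, the hexokinase of most tissues, did not pass in any comparison. Slc2a1 minus Slc2a3 was −0.58, −1.61 and −0.73 with persistent antigen, against −1.73, −2.58 and −1.62 with no antigen, under PBS. Those groups were barely apart. Ldha minus Ldhb was higher by 1.21 with persistent than with no antigen under PBS, with overlap, and Pfkfb3 minus Pfkfb4 by −0.11, also with overlap. These are descriptions, and no test was made.

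**Figure D4:**
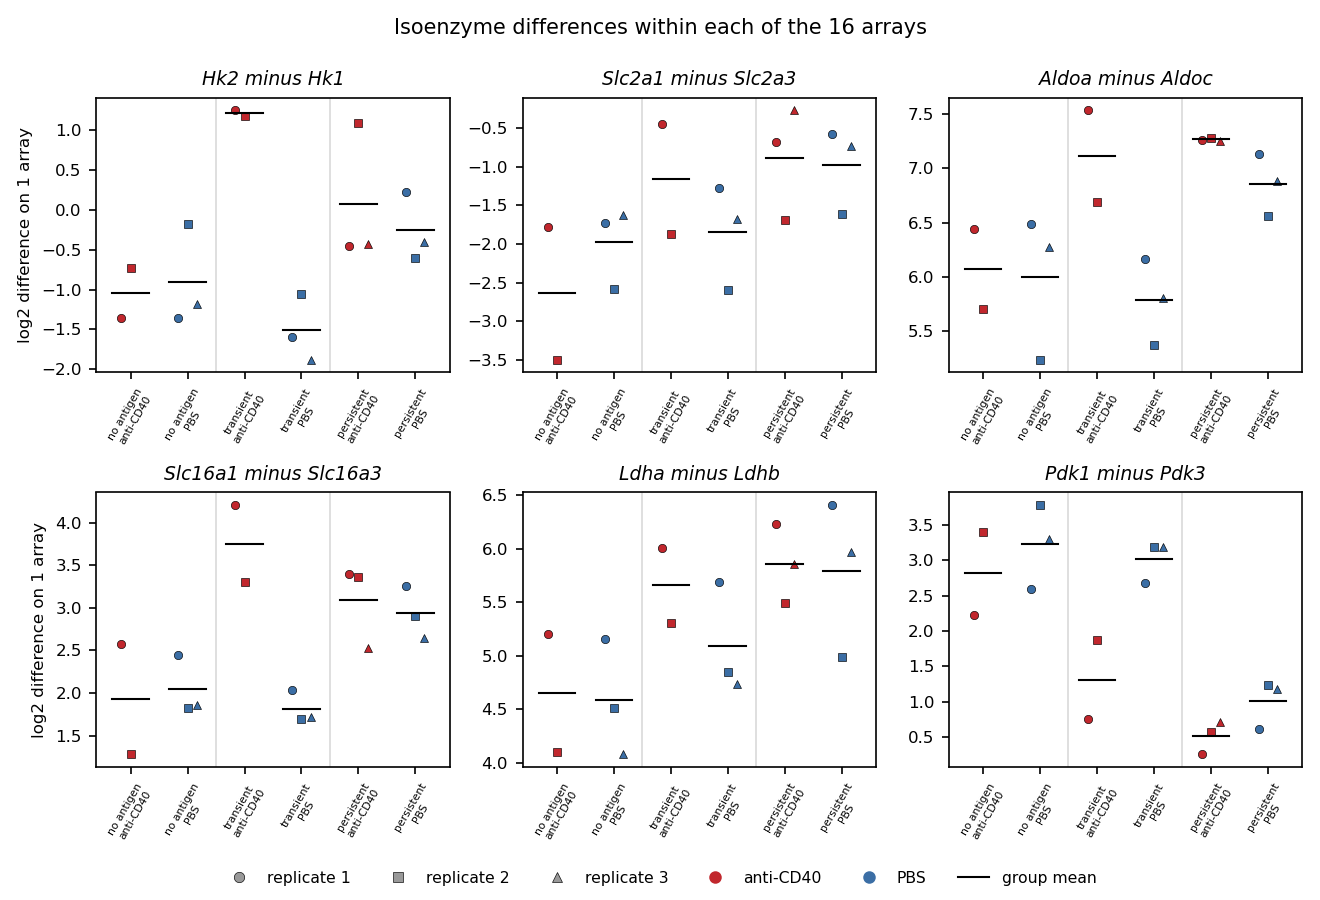
Log2 difference between isoenzymes on each of the 16 arrays for 6 pairs, by antigen regime with anti-CD40 (red) left of PBS (blue); symbols mark the replicate number and lines the group means. Pdk1 minus Pdk3 averaged 1.01 with persistent antigen and PBS, against 3.22 with no antigen and PBS.

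The other genes around these pathways were taken as 5 lists chosen with earlier results of these data known, and 0 genes of them passed in the unblocked fit for persistent against no antigen with PBS. The counts below are read against the 9.93% of all genes that were higher and the 6.79% that were lower in the blocked fit of that comparison, and nothing particular to a list is drawn from them. Of 9 measured genes of the pyruvate dehydrogenase complex and its other regulators, 3 rose in the blocked fit and 0 fell, with a list median of 0.04 against −0.03 for all genes. They were Dld (dihydrolipoamide dehydrogenase, 1.54 ± 0.31, adjusted p = 0.0014), Pdhx (the E3-binding protein, 1.22 ± 0.22, adjusted p = 0.00051) and Dlat (the acetyltransferase core, 0.81 ± 0.19, adjusted p = 0.0056). Of 19 genes of side branches, 6 rose and 1 fell. The largest rises were Gpd1l (1.14 ± 0.16, adjusted p = 2.5e-05), related to glycerol 3-phosphate dehydrogenase, and Pgp (1.13 ± 0.20, adjusted p = 0.00033), a phosphatase that clears toxic side products of glycolysis. Of 14 other isoenzymes, such as those of liver and testis, 0 passed in either fit.

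Of 14 regulators, 2 rose and 3 fell with persistent antigen and PBS, with a list median of −0.06. Txnip, an inhibitor of glucose uptake, was at 8.92, 7.97 and 8.53 with persistent antigen, against 10.41, 9.64 and 10.16 with no antigen. It fell by −1.59 ± 0.15 without overlap (adjusted p = 3.1e-07, and 0.057 without the block). Hif1a, the oxygen-regulated activator of glycolytic genes, was at 10.76, 9.76 and 10.77 with persistent antigen, against 9.46, 9.12 and 9.12 with no antigen, a rise of 1.20 ± 0.23 (adjusted p = 0.00074). Myc, another activator of these genes, was at 4.52, 4.62 and 4.08 with persistent antigen, against 5.43, 6.38 and 4.82 with no antigen. It fell by −1.14 ± 0.20 (adjusted p = 0.00034), with 1 persistent array below the median probe set. Of 14 HIF targets outside glycolysis, Higd1a rose (0.75 ± 0.16, adjusted p = 0.0019) and Kdm3a fell (−0.61 ± 0.16, adjusted p = 0.0087).

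With anti-CD40 against PBS under transient antigen, the same lists gave 3 of 9, 4 of 19, 0 of 14 and 3 of 14 higher for the dehydrogenase complex, side branches, regulators and HIF targets in the blocked fit, while 7.59% of all genes were higher and 2.92% lower. In that comparison 1 regulator (Txnip, −1.07 ± 0.17, adjusted p = 0.00038) and 2 HIF targets (Ddit4, −1.15 ± 0.23, and Kdm3a, −0.63 ± 0.18) were lower, and 0 genes of the 5 lists passed without the block.

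Of the 30 members, 9 passed in at least 1 of the comparisons between groups without the block and 20 with it. Hk1, Aldoc, Ldhb, Slc16a3, Pfkfb3, Pfkfb4, Pgls, Rpia, Pdha1 and Pdk2 passed in none with their brightest probe set, and 4 of these 10 lay below the median probe set. For the members that passed in the blocked fit, 107 pairs of another probe set and a comparison were available. The sign was opposite in 14 of them, 13 of which came from probe sets below the median, and 0 of the 14 passed.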

How the data were processed

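The deposited values are linear signal intensities of 45101 probe sets on 16 one-colour Affymetrix arrays, and RMA (version not given in the sources used here) produced them, per the submitters' processing notes. Arrays were grouped by their labels. Intensities were read as log2(intensity + 1), and 34945 probe sets with 1 symbol were reduced to 18193 genes by the highest mean; 932 probe sets with several symbols and 64 control sets were left out. Differences were tested with limma 3.58.1 (R 4.3.3, lmFit and eBayes with an intensity trend) over 6 group means, and adjusted by Benjamini-Hochberg. The replicate number was added as a block because arrays of 1 number deviated together: 36 such pairs had r of 0.48 to 0.81, and 16 of 16 arrays were closest to their own number. Deviations from group means cancel out within a group and mirror each other in groups of 2 arrays, so these pairs are not independent. This pairing comes from the data, since the labels do not define the numbers. Promoter sequences and symbols are from RefSeq, GRCm38.p6. All 35 members are accounted for by step. The members and the gene lists were chosen with earlier results of these data known. The tests were also run on simulated data. These held the replicate effects of the blocked fit and independent noise, so they cannot show whether that block is right. Alternatives were array runs or replicate number as a block, no trend, brighter genes only, averaging all probe sets of a gene, loess scaling, a larger pseudocount, and each array left out. The number of arrays limits the precision.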

Additional observations from a re-analysis of the deposited data

Results flagged for a closer look

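The effect of anti-CD40 against PBS differed between antigen regimes for 5 members in limma's interaction test with the replicate block, and for 0 members without it. Between transient and no antigen the effect was larger by 2.58 ± 0.47 for Hk2 (adjusted p = 0.0058), 1.88 ± 0.41 for Tpi1 (adjusted p = 0.015), 1.84 ± 0.28 for Slc16a1 (adjusted p = 0.0033), 1.55 ± 0.31 for Pgam1 (adjusted p = 0.0094) and 1.02 ± 0.28 for Aldoa (adjusted p = 0.0499). Between persistent and transient antigen it was lower by −1.86 ± 0.45 for Hk2 (adjusted p = 0.041), −1.78 ± 0.39 for Tpi1 (adjusted p = 0.026) and −1.44 ± 0.27 for Slc16a1 (adjusted p = 0.012). Leaving out replicate 2 leaves 1 array each for no and transient antigen with anti-CD40, so only sizes are given for the blocked fit. Between transient and no antigen the differences were then 1.1 (Aldoa) to 2.73 (Hk2), and between persistent and transient antigen −3.02 (Hk2) to −1.85 (Slc16a1). With single arrays left out, only the Slc16a1 difference between transient and no antigen held throughout. None between persistent and transient antigen passed without PBS replicate 3 or anti-CD40 replicate 1 of persistent antigen.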

How the results depend on the processing

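Most counts of members that passed depended on the block, and the cause of the shifts below was not tested. With PBS, persistent against no antigen gave 4 without a block, 18 with the replicate block, 15 with array runs as a block, and 8 with replicates 1 and 3 only. Transient against no antigen gave 0 without a block and 2 with either block. Persistent against transient antigen gave 1, then 12 with the replicate block, 13 with array runs, and 4 with replicates 1 and 3. With anti-CD40, persistent against no antigen gave 5, then 18 with either block and 2 with replicates 1 and 3. Transient against no antigen gave 3, then 15 with either block, and 5 without the intensity trend or with brighter genes only. Anti-CD40 against PBS under transient antigen gave 2, then 14 and 15 with the replicate and run blocks, 5 without the trend or after loess, and 7 with replicates 1 and 3. The interaction of transient and no antigen gave 0, then 5 and 6 with the blocks. That of persistent and transient antigen gave 0, then 3 and 4 with the blocks and 1 with replicates 1 and 3, or 7 with these and the replicate block. Leaving out 1 array each, unblocked counts ranged over 2 to 3, 0 to 1, 0 to 9, 0 to 7 and 0 to 2 in the 5 comparisons of 2 groups above with passes, in that order. With the replicate block they ranged over 1 to 2 for transient against no antigen and 6 to 11 for persistent against transient antigen with PBS, 7 to 13 for anti-CD40 under transient antigen, and 1 to 7 and 0 to 4 for the interactions. Unblocked estimates that changed sign had not passed: Pgd ranged over −0.07 to 1.01 for persistent against transient antigen, lowest without transient PBS replicate 2, and Pfkl over −0.01 to 2.34 for anti-CD40 under transient antigen, lowest without transient anti-CD40 replicate 1. When all probe sets of a gene were averaged, Slc16a1 minus Slc16a3 differed by 0.44 for persistent against no antigen with PBS and by 1.1 for anti-CD40 under transient antigen, against 0.89 and 1.94. Replicates 1 and 3 only were added after seeing the data. Groups of 2 arrays leave 1 when an array is left out, which is then assumed to vary like the other groups. Dim members, below the median probe set, are limited by background.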

Other observations

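Replicate 2 was lower than replicate 1 for most of these genes. In the fit with the replicate block, 26 of the 30 members were lower in replicate 2 than in replicate 1, while 48.6% of all genes were, and the median of the members was −0.54, against 0.01 for all genes. Mean intensity per array was also lower in replicate 2, at 83.5 to 101, against 112 to 121 in replicate 1 and 106 to 115 in replicate 3. Only 4 of the 30 members lay below the median probe set, so the comparison with all genes was not matched for brightness. The part of mean intensity, RNA quality or array runs in the difference between replicates was not tested.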
